A study of Mus musculus with 24 samples.

Results

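Heat shock chaperone genes were followed through macrophages in which the co-repressors CtBP1 and CtBP2 were targeted. The set was chosen by gene symbol and holds 10 genes, Hspa1a, Hspa1b, Hspa8, Hspa4, Hsph1, Dnajb1, Dnaja1, Hsp90aa1, Hsp90ab1 and Hsf1, of 22996 genes measured in primary cells and 54380 in a cell line. Each gene had 1 row in both tables. The choice rested in part on measured values, since Hspa1a and Hspa1b are higher with Ctbp2 siRNA, so the contrast of Ctbp2 siRNA with control siRNA is given here as a description with no test. Of the 10 genes, 9 encode chaperones or their partners. The other, Hsf1, encodes a transcription factor and not a chaperone.

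The primary cells were bone marrow-derived macrophages (BMDMs), grown with L929-conditioned medium from the marrow of male C57BL6/N mice aged 6 to 12 weeks, for which the labels name no mutant allele. They carried Ctbp2 siRNA, Ctbp1 siRNA or control siRNA, duplexes of short RNA that lower the mRNA they match, and were given 100 ng/ml lipopolysaccharide (LPS) for 4 h or PBS as vehicle. LPS is a component of bacterial outer membranes that macrophages sense through Toll-like receptor signalling. J774.1 cells, a macrophage line labelled as female and BALB/c, were a Ctbp1/2 double knockout or wildtype, and both received the same LPS dose, with no vehicle group. There were 24 libraries in 8 groups of 3. The labels give no clone for the knockout and do not say whether replicates came from separate animals or cultures, so p-values measure the spread between these samples. A response to an siRNA duplex other than loss of its target cannot be told apart from that loss, since the labels name 1 siRNA condition for each gene.

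Chaperones bind unfolded proteins and help them fold, refold or reach the proteasome. HSP70 proteins hold short hydrophobic stretches in a cycle driven by ATP, in which J-domain proteins deliver the client and speed up hydrolysis, and nucleotide exchange factors such as the HSP110 family release it. HSP90 proteins take over part-folded clients, among them many kinases and steroid receptors. When proteins misfold, as in heat, the transcription factor HSF1 is freed from chaperones, forms trimers and binds arrays of the inverted unit nGAAn in promoters, where it switches on genes such as Hspa1a and Hspa1b.

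The 250 bases before the start site show what the inducible HSP70 genes share, and what Hsph1, which moved the other way with LPS, carries there. They are from RefSeq on GRCm38.p6, whose table matched 6 of the 10 genes by symbol, Hspa1a, Hspa1b, Hspa4, Hsph1, Dnajb1 and Dnaja1. Capitals mark a pair of inverted units, searched as GAANNTTC and TTCNNGAA, each of which reads the same on both strands. The sequences are given in the direction of transcription, 5′ to 3′, up to the base before the start site. Hspa1a lies at chr17:34972157-34972406 and Hspa1b at chr17:34959239-34959488, both on the minus strand, and the first of 2 annotated Hsph1 start sites has chr5:149636337-149636586, also on the minus strand.
Hspa1a: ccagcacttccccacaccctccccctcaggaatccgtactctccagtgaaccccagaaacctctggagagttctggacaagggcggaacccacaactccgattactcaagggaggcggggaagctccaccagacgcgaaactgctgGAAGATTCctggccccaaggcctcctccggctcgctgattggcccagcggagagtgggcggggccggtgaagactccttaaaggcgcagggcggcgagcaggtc
Hspa1b: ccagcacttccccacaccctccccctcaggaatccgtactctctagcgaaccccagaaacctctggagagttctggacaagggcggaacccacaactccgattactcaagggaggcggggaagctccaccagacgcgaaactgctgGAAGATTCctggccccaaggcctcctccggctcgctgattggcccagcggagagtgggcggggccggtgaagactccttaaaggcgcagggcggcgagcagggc
Hsph1: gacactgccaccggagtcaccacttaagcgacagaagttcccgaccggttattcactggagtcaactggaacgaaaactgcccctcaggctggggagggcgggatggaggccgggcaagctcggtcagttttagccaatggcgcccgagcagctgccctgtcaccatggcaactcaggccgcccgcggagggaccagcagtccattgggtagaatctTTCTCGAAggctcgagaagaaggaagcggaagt

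The Hspa1a and Hspa1b stretches were identical at 247 of 250 positions (98.8%). Counted from 1 at the 5′ end, with the Hspa1a base first, they differ by C44T, T47C and T249G. Both carry the pair GAAGATTC from 104 to 97 bases upstream of the start. In Hsph1 the pair was TTCTCGAA, 33 to 26 bases upstream of the first start site. The first of 3 Dnaja1 start sites holds GAAAATTC, 124 to 117 bases upstream, and neither pair was in the window of Hspa4 or Dnajb1. A pair was thus found in at least 1 window of 4 of the 6 genes with a sequence. Among those 4 are the near copies Hspa1a and Hspa1b. That count is by gene, over 10 windows in all, whereas the shares that follow are by window, so they cannot be set side by side. Among 32851 promoter windows of the same length, GAANNTTC was in 6.69%, TTCNNGAA in 7.17% and at least 1 of them in 12.8%. The same pairs followed, after 2 further bases, by 1 more inverted unit were rare, in 0.247% of windows for GAANNTTC and 0.244% for TTCNNGAA, and in none of these genes' windows. A match describes letters in a window and does not show a site in use.

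The transcripts are near copies too, which bears on how reads were divided. Of the stretches of 31 bases in the longest coding Hspa1a transcript, 63.8% also occur in Hspa1b, and of those in Hspa1b 67.5% also occur in Hspa1a, among GENCODE transcripts of GRCm38. The values of Hspa1a and Hspa1b are therefore uncertain one by one and are also given as a sum. Other members share such stretches with further annotated genes, 77.2% for Hspa8, 62.9% for Hsp90aa1, 20.7% for Dnaja1 and 16.6% for Hsp90ab1, and their levels carry the same limit. Dnajb1 and Hsf1 shared 1.08% and 0.434%, and Hspa4 and Hsph1 shared none. The library kit keeps no strand. Of the exon bases of Hspa1a, 19.0% overlap Gm20481 on the opposite strand, and reads from those bases cannot be told apart. The same holds for 7.05% of the exon bases of Dnaja1, which overlap Smu1, and for 2.89%, which overlap Gm6297, both on the opposite strand.

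Levels are given in TPM, each gene's share of a library's transcripts after division by length, so that genes can be compared. TPM keeps no depth, so the counting error of each library is unknown. The authors' deposited mean of normalized counts, pooled over a table's libraries, was 1263 for Hspa1b and 424 for Hspa1a in BMDMs. For Hspa1b in J774.1 cells it was 58.8. Between 11548 and 12259 genes reached 1 TPM in BMDM libraries and between 11581 and 11823 in J774.1 libraries, and no library was left out. The macrophage markers were at 10 TPM or more for 9 of 9 genes in BMDMs and for 7 of 9 in J774.1 cells, where the other 2 were under 1 TPM. Of 6 neutrophil markers, S100a8 and S100a9 were at 10 TPM or more in BMDMs, and Mpo, Elane and Ly6g stayed below 1 TPM. Retnlg reached 1.84 TPM in its highest BMDM library, with a median of 0.451 TPM. Summed, this list ran from 63.9 to 141 TPM with Ctbp2 siRNA and LPS, 61.9 to 103 TPM with Ctbp1 siRNA and LPS, and 67.1 to 111 TPM with control siRNA and LPS. In vehicle it ran from 51.4 to 85.5 TPM with Ctbp2 siRNA, 51.1 to 86.1 TPM with Ctbp1 siRNA and 54.9 to 101 TPM with control siRNA, so the groups overlapped. The targeted genes were lower in every library that carried their label, by unequal amounts. Ctbp2 was at 10.4 to 20.4 TPM with Ctbp2 siRNA against 36.9 to 54.2 TPM with control siRNA, and Ctbp1 at 48.1 to 59.4 TPM with Ctbp1 siRNA against 117 to 143 TPM with control siRNA. In the double knockout Ctbp1 was at 16.1 to 22.3 TPM and Ctbp2 at 61.5 to 64.1 TPM, against 156 to 164 and 74.4 to 81.4 TPM in wildtype J774.1 cells. The fold of Ctbp2 there was 0.81, against 0.33 with Ctbp2 siRNA in LPS, so the RNA level does not show loss of Ctbp2 in these cells, which are called a double knockout as labelled.

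The 10 genes spanned a wide range of levels, and the inducible HSP70 genes stood at its bottom in resting cells. In BMDMs with control siRNA and vehicle, Hspa8, the constitutive HSP70, led with 1320.0 ± 49.7 TPM (SD, n = 3). The cytosolic HSP90 genes followed, Hsp90ab1 with 638 ± 13.3 TPM and the stress-responsive Hsp90aa1 with 246 ± 24.8 TPM. Next in order were Dnaja1 with 140.3 TPM, Hspa4 with 108 TPM, Hsph1 with 32.8 TPM, Hsf1 with 28.0 TPM and Dnajb1 with 18.6 TPM. Last came Hspa1b with 4.01 ± 0.366 TPM and Hspa1a with 2.99 ± 0.433 TPM. Only Hsph1 and Hsf1 overlapped among neighbours in that order. Over all BMDM libraries Hspa8 and Hsp90ab1 together made up most of the summed TPM of the set, with 51.6% and 24.1%, while Hspa1b took 1.37% and Hspa1a 0.415%.

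With LPS the order changed in BMDMs with control siRNA. Hspa1b stood 6th with 58.3 ± 6.01 TPM, above Hsf1 with 34.2 ± 3.66 TPM, Hsph1 with 17.4 ± 1.12 TPM and Dnajb1 with 16.8 ± 0.1001 TPM, and Hspa1a stayed last with 15.9 ± 0.385 TPM. Hsph1 and Dnajb1 were the neighbours that overlapped. The first 5 genes kept their places. The summed TPM of the 10 genes was 2937 to 2990 TPM with LPS against 2457 to 2635 TPM in vehicle with control siRNA, and the groups did not overlap.

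The inducible HSP70 genes had the widest spread of the set. Hspa1b ran from 3.79 to 107 TPM over the 18 BMDM libraries, a ratio of 28.3 between the highest and the lowest library, and Hspa1a from 2.54 to 27.8 TPM, a ratio of 11.0. The ratio was 2.65 for Hsph1, 1.85 for Hsf1 and between 1.14 and 1.5 for the other 6 genes.

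**Figure D1:**
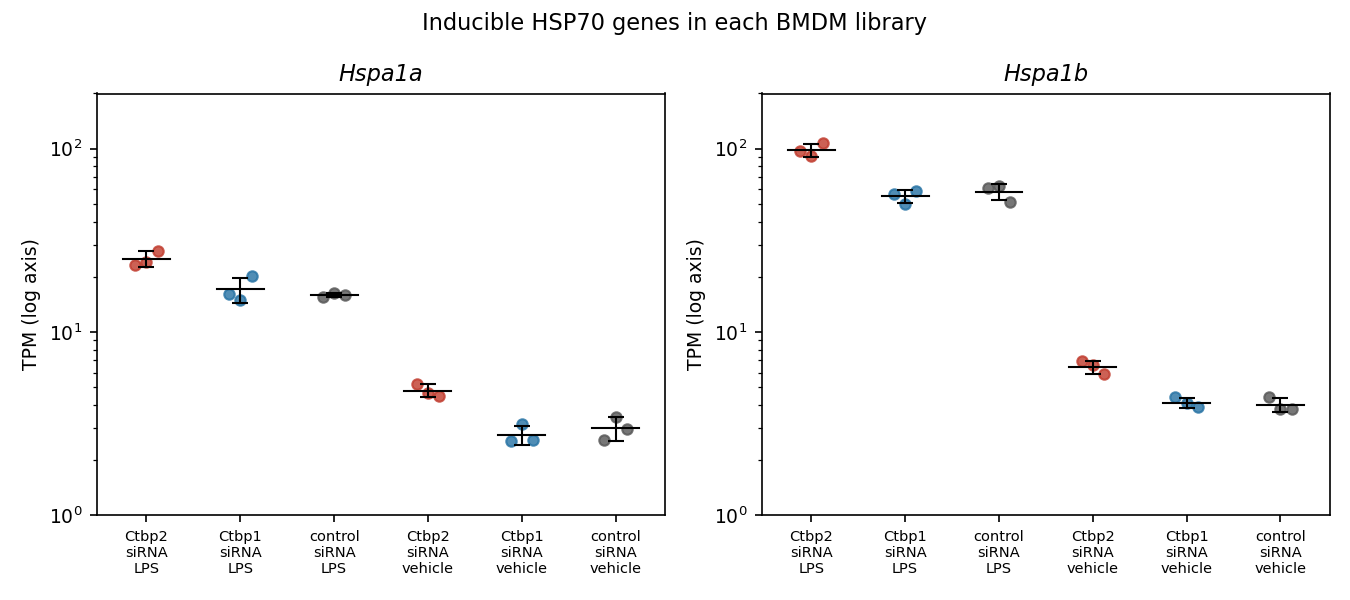
TPM of Hspa1a and Hspa1b (log axis) in each of the 18 BMDM libraries, by siRNA and treatment; points are libraries, horizontal lines the group means and bars the SD. LPS libraries sit above all vehicle libraries for both genes, and Ctbp2 siRNA libraries sit above the Ctbp1 and control siRNA libraries of the same treatment.

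The first tested comparison asked what LPS does to these genes within each siRNA state. The 3 comparisons use separate libraries and share 1 estimate of the spread per gene. LPS raised both inducible HSP70 genes in every state and lowered Hsph1, an HSP110, in every state, while most other genes of the set were called higher by smaller amounts. Of the 10 genes, 7 were called higher and 2 lower with Ctbp2 siRNA, 7 higher and 2 lower with Ctbp1 siRNA, and 8 higher and 2 lower with control siRNA (limma, adjusted p under 0.05). Over all 7918 genes tested, 23.5% were called higher and 55.2% lower with Ctbp2 siRNA. The shares were 24.5% and 50.9% with Ctbp1 siRNA, and 23.3% and 53.1% with control siRNA. Hspa1a and Hspa1b reached the required mean of 10 TPM only through their LPS libraries, so the counts are a description of the set. In the fit with no filter, which tested every gene detected in any BMDM library, the calls of all 10 genes were the same. Without overlap between LPS and vehicle libraries, 7 of the 10 were higher and 2 lower with Ctbp2 siRNA, 8 and 2 with Ctbp1 siRNA, and 7 and 2 with control siRNA. Of all tested genes, 24.2% were higher and 55.9% lower in that sense with Ctbp2 siRNA, 25.4% and 52.7% with Ctbp1 siRNA, and 24.2% and 53.5% with control siRNA.

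TPM is a share, and with LPS the share of the typical gene fell: the median log2 fold change of all tested genes was −0.23 with Ctbp2 siRNA, −0.19 with Ctbp1 siRNA and −0.21 with control siRNA. Median-of-ratios scaling sets these to about 0 and moves each gene up by about the same amount. After it, 36.9% of genes were called higher and 36.3% lower with Ctbp2 siRNA, 36.0% and 35.6% with Ctbp1 siRNA, and 36.2% and 35.5% with control siRNA. Of the 10 genes, 8 were then called higher and 1 lower in each state. The median over the 10 genes, before scaling, was 0.29 with Ctbp2 siRNA, 0.21 with Ctbp1 siRNA and 0.25 with control siRNA. In these bulk libraries, fewer cells with a transcript and less of it per cell cannot be told apart.

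Hspa1b, one of the pair of genes for the heat-inducible HSP70, showed the largest change of the set. With Ctbp2 siRNA it was at 97.0, 91.0 and 107 TPM with LPS, against 6.92, 6.58 and 5.89 TPM in vehicle. With Ctbp1 siRNA it was at 56.8, 49.8 and 58.7 TPM with LPS, against 4.4, 4.10 and 3.88 TPM in vehicle. With control siRNA it was at 60.8, 62.6 and 51.4 TPM with LPS, against 4.44, 3.79 and 3.81 TPM in vehicle. All 9 LPS libraries were thus above all 9 vehicle libraries. The ratio of group means was 15.2 with Ctbp2 siRNA, 13.4 with Ctbp1 siRNA and 14.5 with control siRNA. Because the gene reached the mean of 10 TPM only through its LPS libraries, its test is given from the fit with no filter. On the scale of log2(TPM + 1), which understates changes of low genes, the fold changes there were 3.74 ± 0.09 (SE, adjusted p = 6.03e-14), 3.45 ± 0.09 (1.65e-13) and 3.56 ± 0.09 (1.14e-13) in the same order of siRNAs. The authors' deposited table, fitted on counts, gives a log2 fold change of 4.29 with Ctbp2 siRNA, 4.04 with Ctbp1 siRNA and 4.20 with control siRNA.

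Hspa1a, its near copy, changed in the same direction by less. Its LPS libraries had 23.3, 24.1 and 27.8 TPM with Ctbp2 siRNA, against 5.23, 4.68 and 4.47 TPM in vehicle. With Ctbp1 siRNA they had 16.2, 14.9 and 20.1 TPM, against 2.54, 3.14 and 2.58 TPM in vehicle. With control siRNA they had 15.5, 16.3 and 15.8 TPM, against 2.57, 3.43 and 2.98 TPM in vehicle. No LPS library overlapped a vehicle library. The ratio of means was 5.23 with Ctbp2 siRNA, 6.20 with Ctbp1 siRNA and 5.30 with control siRNA. In the fit with no filter, used for the same reason, the log2 fold changes were 2.17 ± 0.11 (SE, adjusted p = 2.53e-10), 2.26 ± 0.11 (1.83e-10) and 2.08 ± 0.11 (4.53e-10) in that order.

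Summed, the inducible pair held 124 ± 10.4 TPM with Ctbp2 siRNA and LPS against 11.3 ± 0.889 TPM in vehicle (SD, n = 3 each). The sum was 72.2 ± 7.07 TPM with Ctbp1 siRNA and LPS against 6.88 ± 0.388 TPM in vehicle, and 74.2 ± 6.11 TPM with control siRNA and LPS against 7.01 ± 0.218 TPM in vehicle. The balance within the pair moved with LPS: Hspa1b over Hspa1a was 2.92 to 4.17 in the 9 LPS libraries, with a median of 3.77, against 1.10 to 1.73 in the 9 vehicle libraries, with a median of 1.32. The ranges did not overlap. How far the division of shared reads between the copies sets this ratio was not tested.

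Hspa8, the constitutive HSP70 that most cells keep at a high level, was 1519, 1529 and 1508 TPM with Ctbp2 siRNA and LPS, against 1301, 1329 and 1280 TPM in vehicle. It had 1519, 1516 and 1523 TPM with Ctbp1 siRNA and LPS, against 1382, 1327 and 1308 TPM in vehicle. With control siRNA it had 1525, 1510.1 and 1562 TPM with LPS, against 1268, 1367 and 1324 TPM in vehicle. The LPS libraries were higher in each state with no overlap, and the log2 fold change was 0.22 ± 0.03 (adjusted p = 5.54e-06), 0.18 ± 0.03 (4.88e-05) and 0.22 ± 0.03 (7.80e-06) with Ctbp2, Ctbp1 and control siRNA.

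The HSP110 genes, whose products act as nucleotide exchange factors for HSP70, moved in opposite directions. Hsph1 had 13.9, 14.0 and 13.9 TPM with Ctbp2 siRNA and LPS, against 35.5, 34.5 and 31.9 TPM in vehicle. With Ctbp1 siRNA it had 19.2, 18.2 and 18.6 TPM with LPS, against 33.8, 32.2 and 34.2 TPM in vehicle. With control siRNA it had 16.6, 17.1 and 18.7 TPM with LPS, against 36.7, 29.7 and 32.0 TPM in vehicle. The LPS libraries were lower in every state, at 41.0% of the vehicle mean with Ctbp2 siRNA, 55.9% with Ctbp1 siRNA and 53.2% with control siRNA. The log2 fold changes were −1.23 ± 0.07 (adjusted p = 4.69e-11), −0.81 ± 0.07 (1.52e-08) and −0.87 ± 0.07 (5.33e-09), and after scaling Hsph1 was still lower by −1.0, −0.63 and −0.67. Hspa4 rose, to 130 ± 10.7 TPM with Ctbp2 siRNA and LPS against 101 ± 8.40 TPM in vehicle, with a log2 fold change of 0.35 ± 0.07 (adjusted p = 0.000151). Its change was 0.38 ± 0.07 with Ctbp1 siRNA (7.69e-05) and 0.30 ± 0.07 with control siRNA (0.000700).

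**Figure D2:**
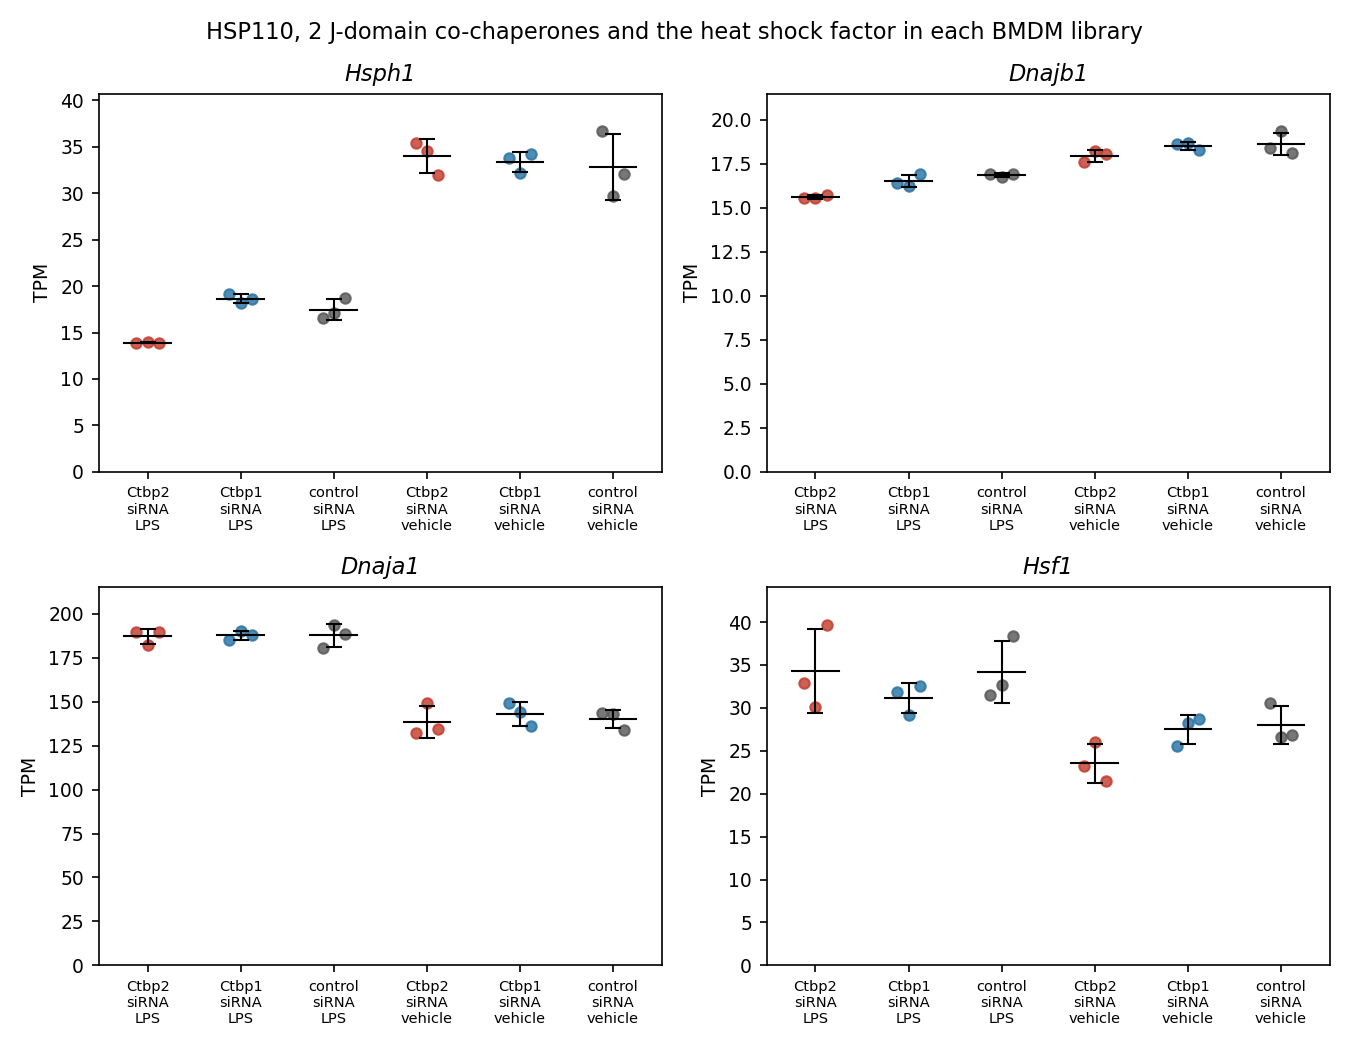
TPM of Hsph1, Dnajb1, Dnaja1 and Hsf1 in each BMDM library, by siRNA and treatment; points are libraries, horizontal lines the group means and bars the SD, and each axis starts at 0. Hsph1 lay between 13.9 and 19.2 TPM in LPS libraries and between 29.7 and 36.7 TPM in vehicle libraries, whereas Dnaja1 was higher with LPS.

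The J-domain genes, whose products bring clients to HSP70, also parted. Dnaja1 had 190, 182 and 190 TPM with Ctbp2 siRNA and LPS, against 132, 149 and 134 TPM in vehicle. It had 185, 190.0 and 188 TPM with Ctbp1 siRNA and LPS, against 149, 144 and 136 TPM in vehicle. With control siRNA it had 181, 194 and 189 TPM with LPS, against 143, 143 and 134 TPM in vehicle. It rose in each state with no overlap, by 0.43 ± 0.05 (adjusted p = 3.21e-07), 0.39 ± 0.05 (1.35e-06) and 0.42 ± 0.05 (5.63e-07) on the log2 scale. Dnajb1, the HSP40 partner of inducible HSP70, had 15.5, 15.6 and 15.7 TPM with Ctbp2 siRNA and LPS, against 17.6, 18.2 and 18.1 TPM in vehicle. As a share it was called lower in each state, by −0.19 ± 0.05 with Ctbp2 siRNA (0.00217), −0.16 ± 0.05 with Ctbp1 siRNA (0.00885) and −0.14 ± 0.05 with control siRNA (0.0199). After scaling these changes were 0.04, 0.02 and 0.06 and none was called. The authors' deposited table gives 0.16 with Ctbp2 siRNA (adjusted p = 0.0226), 0.13 with Ctbp1 siRNA (0.0571) and 0.19 with control siRNA (0.0053). The direction of Dnajb1 thus depends on the scaling. Without control siRNA vehicle replicate 3 its call with control siRNA was also lost (adjusted p = 0.0855).

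The size of the change of the HSP90 genes depended on the scaling. Hsp90ab1, the constitutive form, had 677, 673 and 689 TPM with Ctbp2 siRNA and LPS, against 622, 628 and 624 TPM in vehicle, a log2 fold change of 0.12 ± 0.03 (adjusted p = 0.000469). It rose by 0.12 ± 0.03 with Ctbp1 siRNA (0.000779) and by 0.11 ± 0.03 with control siRNA (0.00124). The groups of Hsp90ab1 did not overlap in any state. After scaling its log2 fold changes were 0.36, 0.30 and 0.32 with Ctbp2, Ctbp1 and control siRNA, and the authors' deposited table gives 0.48, 0.42 and 0.44. Hsp90aa1, the more stress-responsive form, had 248, 287 and 281 TPM with Ctbp2 siRNA and LPS, against 247, 258 and 223 TPM in vehicle, and that difference was not called (0.16 ± 0.08, adjusted p = 0.0691). It was called after scaling (0.40, adjusted p = 0.000283) and with the replicate block (0.0301). Hsp90aa1 was called higher with Ctbp1 siRNA (0.23 ± 0.08, 0.0135) and with control siRNA (0.22 ± 0.08, 0.0200), and scaling brought these to 0.42 and 0.42. The authors' deposited table gives 0.52, 0.53 and 0.55 for Hsp90aa1 with Ctbp2, Ctbp1 and control siRNA. The call with control siRNA was lost without LPS replicate 3 (0.110), vehicle replicate 1 (0.109) or vehicle replicate 4 (0.0590), and that with Ctbp1 siRNA without LPS replicate 3 (0.0637) or vehicle replicate 3 (0.0537).

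Hsf1, the master regulator of the heat shock response, had 32.9, 30.1 and 39.7 TPM with Ctbp2 siRNA and LPS, against 23.2, 26.0 and 21.5 TPM in vehicle. With Ctbp1 siRNA it had 31.8, 29.1 and 32.5 TPM with LPS, against 25.6, 28.2 and 28.7 TPM in vehicle. With control siRNA it had 31.5, 32.7 and 38.3 TPM with LPS, against 30.5, 26.6 and 26.8 TPM in vehicle. LPS libraries were higher in each state without overlap, although the nearest values lay close together with Ctbp1 and control siRNA. It was called higher with Ctbp2 siRNA (0.52 ± 0.10, adjusted p = 0.000159) and with control siRNA (0.28 ± 0.10, 0.0188), and not with Ctbp1 siRNA (0.17 ± 0.10, 0.125). After scaling it was called with Ctbp1 siRNA too (0.35, adjusted p = 0.00297), and the authors' deposited table gives 0.48 there (2.27e-06). The control siRNA call was lost without LPS replicate 4 (0.102), vehicle replicate 3 (0.0645) or vehicle replicate 4 (0.0613). Whether the response of Hsf1 or Hsph1 differs between Ctbp2 and control siRNA was not tested, since that difference uses the contrast that chose the set.

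**Figure D3:**
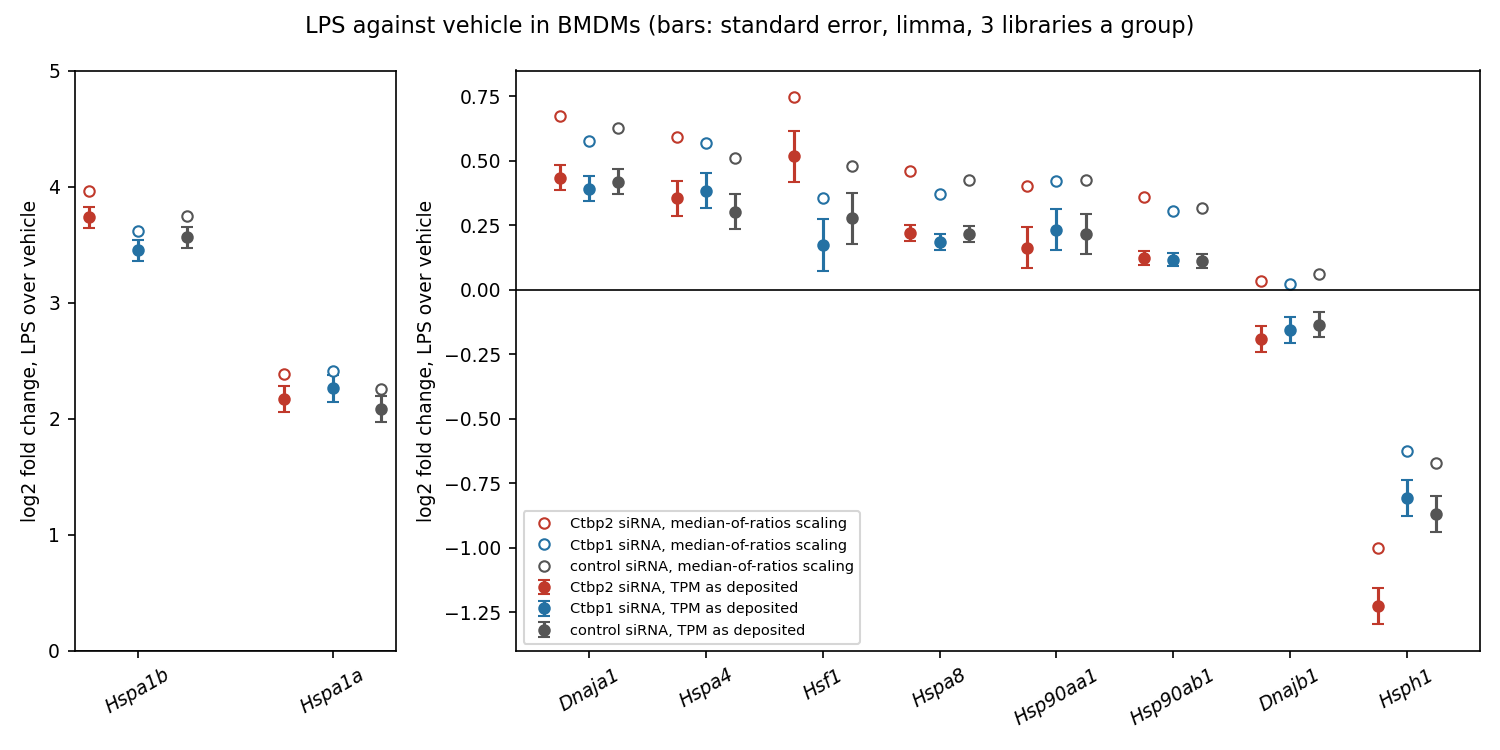
Log2 fold change of LPS over vehicle for the 10 genes with Ctbp2, Ctbp1 and control siRNA; filled points are log2(TPM + 1) values as deposited with their standard error (limma, 3 libraries a group), open points the same after median-of-ratios scaling, and the left panel has its own axis. Dnajb1 is below 0 as deposited and above 0 after scaling, and Hsph1 is below 0 in both.

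Other genes of the chaperone system were read with LPS from lists. With control siRNA their counts stand beside 23.3% of all genes called higher and 53.1% lower, or 36.2% and 35.5% after scaling. Among 13 further heat-inducible chaperones and HSF1 targets, 6 were tested, and with control siRNA 1 rose and 3 fell, with a list median of −0.08 beside −0.21 for all genes. Dnajb4, a J-domain protein, rose to 63.1 ± 3.78 TPM with LPS against 46.3 ± 1.30 TPM in vehicle (0.44, adjusted p = 2.42e-05). Bag3, an HSP70 partner in selective autophagy and a known HSF1 target, fell to 42.9 ± 0.599 TPM with LPS against 57.8 ± 1.48 TPM in vehicle (−0.42, 1.29e-07). Hspa4l, an HSP110 relative, fell by 0.51 on the log2 scale, and the polyubiquitin gene Ubb was called lower at −0.19, which became 0.02 after scaling. With scaling the list held 3 higher and 2 lower genes. With Ctbp2 siRNA 1 rose and 3 fell, and with Ctbp1 siRNA 2 rose and 4 fell.

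Of the HSP70 co-chaperones, with control siRNA 3 of 11 tested rose and 5 fell, from a list of 14, or 5 and 3 after scaling, close to the shares of all genes. Dnaja2, a J-domain protein, rose to 216 ± 13.0 TPM with LPS against 117 ± 2.60 TPM in vehicle (0.88, adjusted p = 3.12e-11), and Dnajb6, which holds back aggregation, rose by 0.43 (5.23e-08). Dnajc7, which binds both HSP70 and HSP90, fell by 0.57 on the log2 scale (7.61e-08), and Hspa14, an HSP70 relative, by 0.49 (2.48e-05). The counts were 3 higher and 7 lower with Ctbp2 siRNA and 3 higher and 6 lower with Ctbp1 siRNA.

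Among HSP90 co-chaperones, with control siRNA 3 of 8 tested rose and 4 fell. Stip1, which links HSP70 to HSP90, rose to 161 ± 7.64 TPM with LPS against 69.3 ± 3.41 TPM in vehicle (1.20, adjusted p = 2.62e-13). Cdc37, which brings kinases to HSP90, rose to 261 ± 8.86 TPM with LPS against 168 ± 5.40 TPM in vehicle (0.63, 9.88e-10). Ahsa1, which speeds up the HSP90 ATPase, fell to 191 ± 20.8 TPM with LPS against 312 ± 5.49 TPM in vehicle (−0.71, 1.06e-07), and Fkbp4, an immunophilin of steroid receptor complexes, fell by 0.75 on the log2 scale. Those 4 kept their direction after scaling. With Ctbp2 siRNA 3 rose and 4 fell, and with Ctbp1 siRNA 3 rose and 3 fell.

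Chaperonin and prefoldin subunits, which fold actin and tubulin among others, were higher in part: with control siRNA 8 of 14 tested rose and 2 fell, a list median of 0.16, and after scaling 12 rose and none fell. Pfdn4 rose by 0.50, Cct3 by 0.39, Cct6a by 0.38 and Cct8 by 0.35 on the log2 scale. The counts were 6 higher and 3 lower with Ctbp2 siRNA and 8 higher and 2 lower with Ctbp1 siRNA. Mitochondrial chaperones had no gene higher and 4 of 7 lower with control siRNA, led by Hscb, an iron-sulfur co-chaperone, at 12.1 ± 1.51 TPM with LPS against 29.1 ± 3.60 TPM in vehicle (−1.20, adjusted p = 7.84e-06). The share lower was close to that of all genes. After scaling 3 were higher and 1 lower. With Ctbp2 siRNA 1 was higher and 4 lower, and with Ctbp1 siRNA none higher and 2 lower. Of the 4 heat shock factor genes, 2 were tested, and Hsbp1, an HSF1-binding protein, was called lower at −0.23 with control siRNA, but at −0.02 after scaling it was not called.

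The second tested comparison, Ctbp1 siRNA against control siRNA, gave no call in the set. In vehicle none of the 10 genes was called with limma, beside 0.0505% of genes higher and 0.164% lower, and in LPS none was called beside 0.0253% and 0.126%. The count was also 0 at an unadjusted p under 0.05 in both, and 0 in each alternative tried. All 10 genes overlapped between the groups in vehicle and in LPS, while of all genes 9.17% were higher and 10.1% lower without overlap in vehicle, and 6.44% and 3.70% in LPS. The largest difference in vehicle was that of Hspa1a, whose means were 2.75 TPM with Ctbp1 siRNA and 2.99 TPM with control siRNA. Because it entered the main fit only through its LPS libraries, its test is given from the fit with no filter. The difference there was −0.09 ± 0.11 (SE, adjusted p = 0.931). In LPS the largest difference was −0.13 ± 0.10 for Hsf1 in the main fit (SE, adjusted p = 0.793). Its means were 31.2 TPM with Ctbp1 siRNA and 34.2 TPM with control siRNA. The change of the LPS response by Ctbp1 siRNA was not called for any of the 10 genes either, beside 0.0126% of genes higher and 0% lower, and again none passed an unadjusted p under 0.05. In the lists, the counts with Ctbp1 siRNA against control siRNA were 0 higher and 0 lower in each of the 6 chaperone lists.

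With Ctbp2 siRNA the pair Hspa1a and Hspa1b stood above control siRNA in both treatments, which is the contrast that chose the set. In LPS, Hspa1b averaged 98.5 ± 8.25 TPM with Ctbp2 siRNA and 58.3 ± 6.01 TPM with control siRNA, a ratio of 1.69. Hspa1a averaged 25.1 ± 2.43 TPM with Ctbp2 siRNA and 15.9 ± 0.385 TPM with control siRNA, a ratio of 1.58. In vehicle, Hspa1b averaged 6.46 ± 0.522 TPM with Ctbp2 siRNA and 4.01 ± 0.366 TPM with control siRNA, a ratio of 1.61. Hspa1a there averaged 4.79 ± 0.390 TPM with Ctbp2 siRNA and 2.99 ± 0.433 TPM with control siRNA, a ratio of 1.60. In each treatment the lowest Ctbp2 siRNA library was also above the highest Ctbp1 siRNA library for both genes, 91.0 against 58.7 TPM for Hspa1b in LPS and 5.89 against 4.4 TPM in vehicle. Ctbp1 siRNA libraries overlapped control siRNA libraries, as above.

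The rest of the set stayed nearer to control. In LPS, 2 genes were higher without overlap, the inducible pair, and 2 lower, Hsph1 at 79.8% and Dnajb1 at 92.6% of the control siRNA mean, while 6 overlapped. Among all tested genes 4.51% were higher and 15.3% lower without overlap in that contrast. Hsph1 had 13.9, 14.0 and 13.9 TPM with Ctbp2 siRNA, below 16.6 TPM, the lowest control siRNA library, and below 18.2 TPM, the lowest Ctbp1 siRNA library. In vehicle the inducible pair was higher and Hsf1 lower without overlap, at 84.2% of the control siRNA mean, and 7 genes overlapped, beside 7.03% of all genes higher and 16.3% lower. Hsf1 had 23.2, 26.0 and 21.5 TPM with Ctbp2 siRNA against 30.5, 26.6 and 26.8 TPM with control siRNA, so the nearest values were 26.0 and 26.6 TPM. Hspa8, the constitutive HSP70, stood at 99.1% of control siRNA in LPS and 98.7% in vehicle. The median log2 differences of the 6 chaperone lists lay between −0.07 and 0.03 in vehicle, beside −0.03 for all genes. In LPS they lay between −0.08 and −0.02, beside −0.05.

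**Figure D4:**
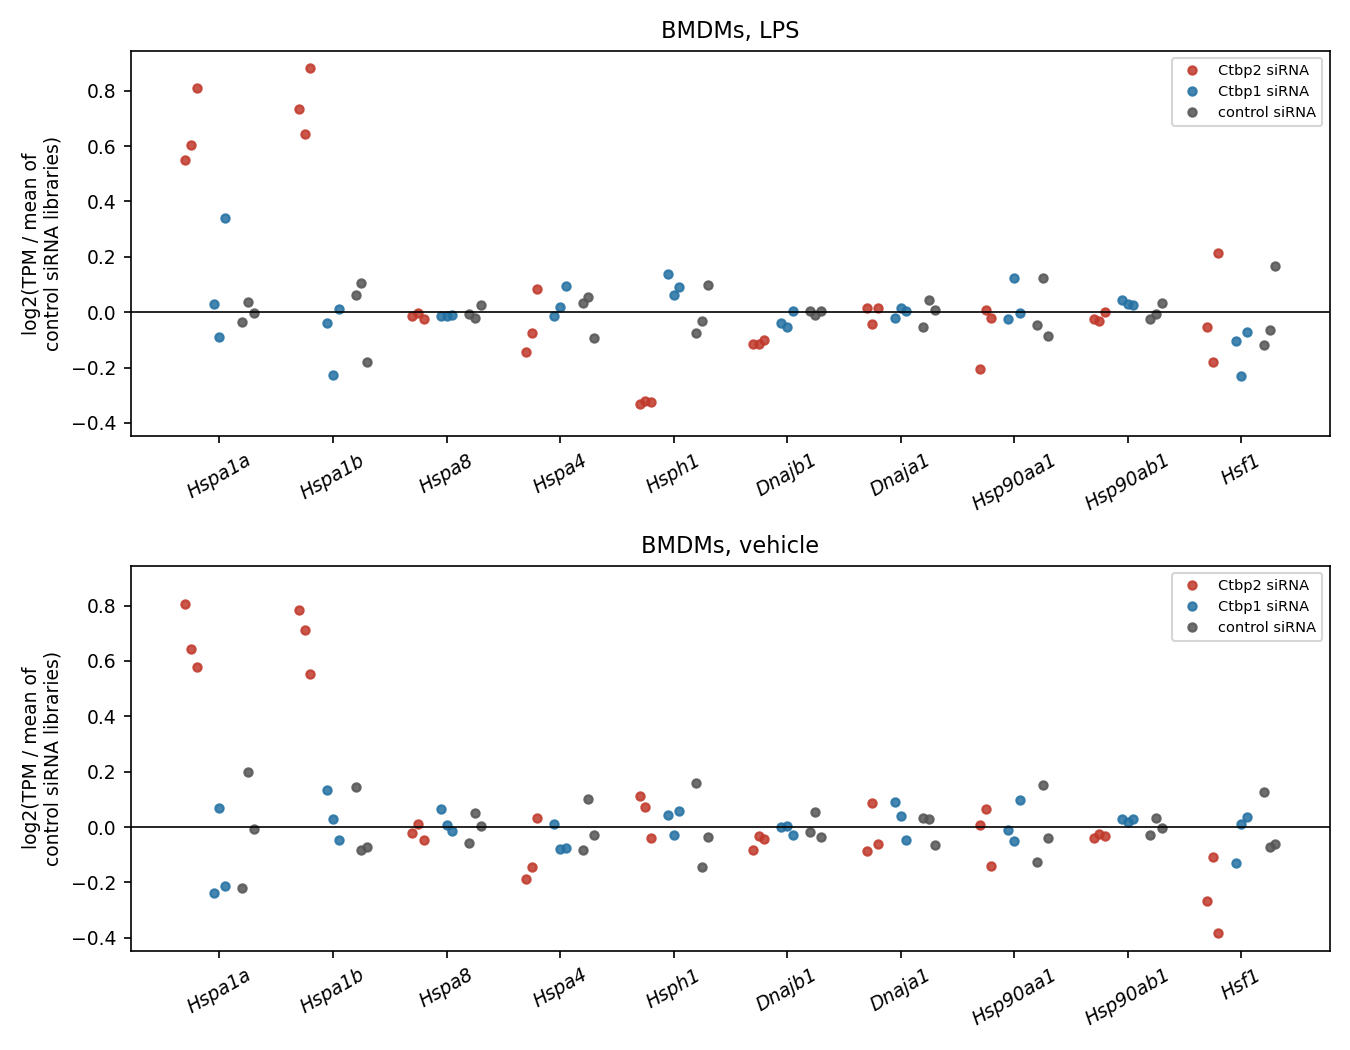
Log2 of each library's TPM over the mean of the control siRNA libraries of the same treatment, for the 10 genes, with LPS in the upper and vehicle in the lower panel; points are libraries. Ctbp2 siRNA libraries of Hspa1a and Hspa1b lie above all others in both panels, and those of Hsph1 lie below in LPS.

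The third tested comparison was the Ctbp1/2 double knockout against wildtype in J774.1 cells, all with LPS. The inducible pair was low there. Hspa1a was listed at 0 in 2 double knockout libraries and at 0.0793 TPM in the other, and at 0 in all 3 wildtype libraries. Hspa1b had 0.687, 1.02 and 0.953 TPM in double knockout cells, against 2.44, 2.00 and 2.01 TPM in wildtype cells. The double knockout libraries were lower without overlap, at 41.2% of the wildtype mean, with an exact two-sided permutation p = 0.1, the smallest that 3 against 3 libraries can give. Neither gene reached the mean of 10 TPM needed for the main fit. In the fit with no filter Hspa1b was lower by −0.74 ± 0.12 (SE, adjusted p = 0.00766), and the authors' deposited table gives −1.39 (adjusted p = 4.44e-06). For comparison, Hspa1b in BMDMs with LPS was at 98.5 TPM with Ctbp2 siRNA and 58.3 TPM with control siRNA, in a table normalized separately, so that no test was made across the cell types.

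Of the 8 genes tested, 1 was called lower and none higher in the double knockout, beside 25.4% of genes higher and 16.6% lower, or 22.0% and 21.1% after scaling. At an unadjusted p under 0.05 there were 3. Dnajb1, the one called, had 15.9, 18.3 and 15.2 TPM in double knockout cells, against 19.4, 19.3 and 18.9 TPM in wildtype cells (−0.22 ± 0.07, adjusted p = 0.0433). The call was lost without double knockout replicate 1 (0.106) or 3 (0.134), without wildtype replicate 1 (0.105), 2 (0.103) or 3 (0.0827), and with no filter (0.0994). Hspa4 had 345, 320 and 328 TPM in double knockout cells, against 351, 360 and 349 TPM in wildtype cells, and was not called (−0.10 ± 0.03, 0.0510). Nor was Hsp90aa1 called, with 886, 884 and 923 TPM in double knockout cells, against 911, 971 and 982 TPM in wildtype cells (−0.09 ± 0.03, 0.0712), and scaling brought both past the threshold (adjusted p = 0.0247 and 0.0205). The authors' deposited table gives −0.30 for Dnajb1 (adjusted p = 0.000793), −0.14 for Hspa4 (8.65e-06) and −0.18 for Hsp90aa1 (2.92e-15), so these calls depend on the fit. Without overlap, 4 of the 10 genes were lower, Hspa1b, Hspa4, Dnajb1 and Hsp90ab1, and none higher. Of the 7782 genes tested, 21.9% were lower and 32.0% higher in that sense. Hspa1a and Hspa1b are not among those tested, so the count and the shares have unlike bases.

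None of the other 5 genes tested was called between the genotypes with limma. The authors' deposited table, fitted on counts, gives log2 fold changes of −0.14 for Hspa8 (adjusted p = 4.67e-05) and −0.09 for Hsp90ab1 (0.000258). Its adjusted p was 0.729 for Hsf1, 0.245 for Dnaja1 and 0.770 for Hsph1. Hsp90ab1 averaged 2271 ± 4.79 TPM in double knockout cells and 2304 ± 24.2 TPM in wildtype cells (−0.02 ± 0.02, adjusted p = 0.444), and Hspa8 3347 ± 218 TPM in double knockout cells and 3516 ± 100.2 TPM in wildtype cells (−0.07 ± 0.04, 0.227). Hsf1 averaged 64.5 ± 3.36 TPM in double knockout cells and 63.6 ± 3.80 TPM in wildtype cells (0.02 ± 0.06, 0.796). Hsph1 averaged 147 ± 17.8 TPM in double knockout cells and 153 ± 5.04 TPM in wildtype cells (−0.07 ± 0.08, 0.546), and Dnaja1 265 ± 9.89 TPM in double knockout cells and 274 ± 6.71 TPM in wildtype cells (−0.05 ± 0.04, 0.297). In wildtype J774.1 cells the order of levels was Hspa8, Hsp90ab1, Hsp90aa1, Hspa4, Dnaja1, Hsph1, Hsf1, Dnajb1, Hspa1b and Hspa1a, with no overlap between neighbours. Hsph1 stood 6th there, and 8th with 17.4 ± 1.12 TPM in control siRNA BMDMs with LPS, and this too is across separate tables.

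**Figure D5:**
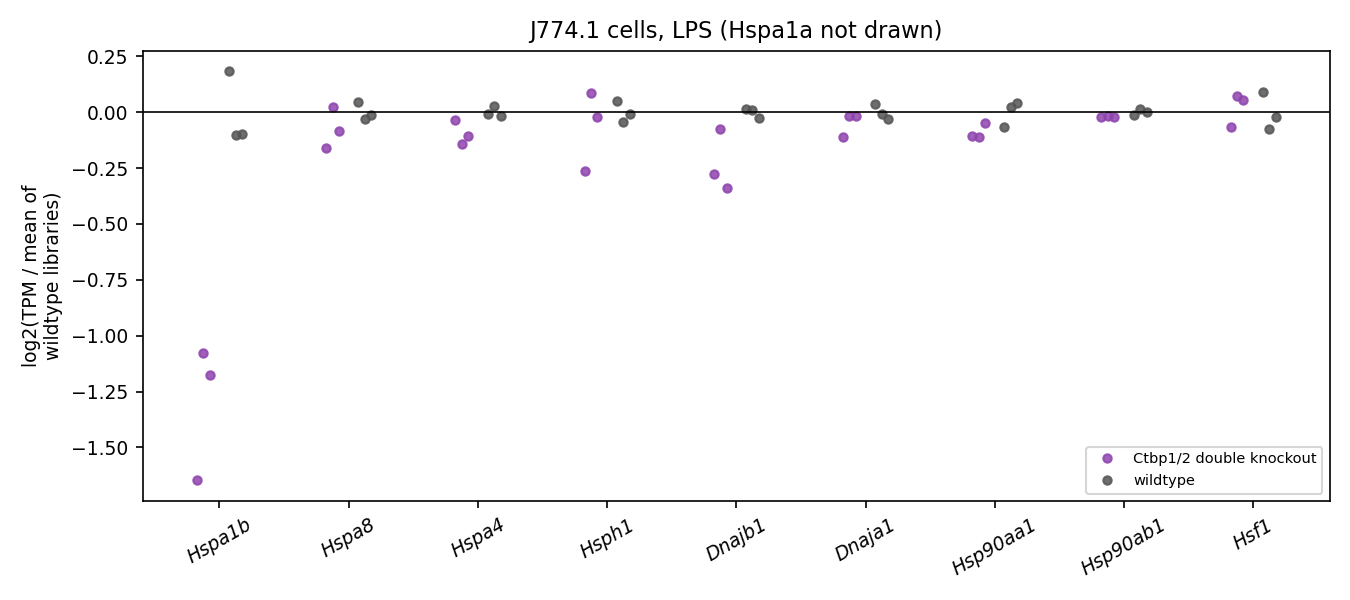
Log2 of each library's TPM over the mean of the wildtype libraries for 9 genes in J774.1 cells with LPS; points are libraries, with double knockout left of wildtype, and Hspa1a is not drawn because it was listed at 0 in wildtype. Hspa1b is lower in all 3 double knockout libraries than in any wildtype library.

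In the double knockout the chaperone lists held calls in both directions, beside 25.4% of all genes higher and 16.6% lower. Among HSP70 co-chaperones 1 of 13 tested rose, Dnajb2 at 13.4 ± 2.08 TPM in double knockout cells against 9.68 ± 0.312 TPM in wildtype cells (0.42, adjusted p = 0.0126), and 4 fell, with Dnajb6 at 111 ± 0.841 TPM in double knockout cells against 132 ± 2.16 TPM in wildtype cells (−0.25, 0.000248). Of 9 HSP90 co-chaperones, Cdc37 rose to 638 ± 10.3 TPM against 531 ± 12.9 TPM in wildtype (0.27, 0.000106), and Ppid and Stip1 fell by 0.14 and 0.12 on the log2 scale. Mitochondrial Hscb rose by 0.44 and Dnaja3 by 0.16, the 2 called of 7, and Cct3 was the 1 chaperonin subunit called of 14, higher by 0.18. Ubb fell by 0.20 (0.0224). After scaling the HSP70 co-chaperones had 1 higher and 5 lower, the HSP90 co-chaperones 1 higher and 4 lower, the mitochondrial chaperones 2 higher and 1 lower and the chaperonin and prefoldin subunits 1 higher and 2 lower, beside 22.0% and 21.1% of all genes.

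The pattern of the inducible pair over the 18 BMDM libraries was most like that of 5 genes, by Pearson r with the log2(TPM + 1) of the summed pair among 7908 genes. They were Lpcat2, a lysophospholipid acyltransferase (r = 0.99), the lactate exporter gene Slc16a3 (0.99), the AP-1 gene Junb (0.99), Myadm (0.99) and Il2rg, the common cytokine receptor chain (0.99). The libraries share 3 siRNA states and 2 treatments, and 1128 genes had an r over 0.9, so the likeness is a description. Lpcat2 averaged 64.7 TPM with Ctbp2 siRNA and LPS, 54.4 TPM with Ctbp1 siRNA and LPS and 52.9 TPM with control siRNA and LPS, and 28.2, 23.4 and 24.2 TPM with the same siRNAs in vehicle.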

How the data were processed

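Polyadenylated RNA was sequenced by the submitters in 24 libraries with an unstranded kit. Per the file headers and the submitters' processing notes, the authors quantified reads with Salmon 1.9.0 and deposited TPM per library, as gene-level scaled TPM on mm39 for BMDMs. FastQC, GRCm38 and GRCm39 are also in those notes. The DESeq2 1.44.0 (R 4.4.1) output deposited by the authors comprises a signal (the mean of normalized counts), log2 fold changes and p-values. Depth is not kept by TPM.

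Here limma 3.58.1 in R 4.3.3 (lmFit, eBayes with trend and robust estimation) was fitted on log2(TPM + 1). A gene was tested where its mean across a fit's libraries was 10 TPM or more, which left 7918 genes in the 18 BMDM libraries fitted together and 7782 in the 6 J774.1 libraries. Adjustment was by Benjamini-Hochberg over these, with calls at 0.05. Steps were tested on simulated data. In the J774.1 values, identifiers that were repeated (190) were counted once. Alternatives were the pseudocount, filter, scaling, a replicate block, fits of only the libraries compared and leaving out each replicate. The members and lists were chosen with earlier results of these data known. All 10 members were named, with up to 4 called genes per list and comparison, those changed most, not all of which are reported here. Group overlap compares the lowest and highest library values.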

Additional observations from a re-analysis of the deposited data

How the results depend on the processing

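The calls that LPS raised Hspa1a and Hspa1b and lowered Hsph1 held in each siRNA state under every alternative that tested them; with only the libraries compared fitted, Hspa1a missed the mean of 10 TPM with Ctbp1 and control siRNA. Under median-of-ratios scaling Dnajb1 was at 0.035 with Ctbp2 siRNA, 0.02037 with Ctbp1 siRNA and 0.06193 with control siRNA (log2, LPS over vehicle), so that 1 gene and not 2 was called lower in each state, and 8 and not 7 higher with Ctbp2 siRNA (Hsp90aa1 gained) and with Ctbp1 siRNA (Hsf1 gained); the shift of the median gene is the construction of that scaling. With only the libraries compared fitted, 1 was called lower with control siRNA (the fit holds fewer samples), and leaving out 1 replicate gave 1 to 2. In J774.1 cells 3 genes were called lower with scaling, 0 with the replicate block and 0 to 2 with 1 replicate left out. Genes lower without overlap with Ctbp2 siRNA numbered 1 to 3 in vehicle with 1 replicate left out, and 1 in LPS with scaling. With a pseudocount of 5 the log2 difference between Ctbp2 and control siRNA was 0.29 for Hspa1a and 0.35 for Hspa1b in vehicle, and 0.52 for Hspa1a in LPS, against 0.54, 0.57 and 0.62 with a pseudocount of 1; a larger pseudocount shrinks low values by construction. The cause of the other shifts was not tested. Same-numbered samples deviated together with r over 0.1 in 13 of 24 pairs (−0.05 to 0.28). Every pair was over 0.1 only in Ctbp2 against control siRNA in LPS. In 19 of 24 pairs the correlation with the same number was the best of 3, and the same libraries recur across these pairs. No main fit took the numbers as pairs, so anything that same-numbered libraries share stays in the spread that these fits estimate. The replicate block was run only as an alternative. With the block Hsp90aa1 was called with LPS in Ctbp2 siRNA cells (adjusted p = 0.0301) and Dnajb1 was not called in J774.1 cells (0.0556). Depth per library is unknown, so low values such as Hspa1a in J774.1 cells carry no counting interval.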
